A study of Mus musculus with 12 samples.

Results

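Malat1, Neat1, Miat, Rmst, Sox2ot, Pantr1, Dlx6os1 and Pvt1 are long noncoding RNAs that either stay in the nucleus or are transcribed beside genes of neural development. They were taken by symbol from the deposited gene table, in which 9 of 55450 entries carried one of the 8 symbols. Dlx6os1 was carried by 2 entries, and the second, a 146-base misc_RNA record, had at most 1 count in any library and was set aside. The libraries were made from total RNA of 2 organs, brain and liver, taken from males 7 to 9 weeks of age. The study compared wild-type mice (Vaultrc5+/+, named flx in the titles) with vaultrc5-/- mice, which lack the gene of a small vault RNA. There were 4 groups of 3 libraries each: wild-type brain, knockout brain, wild-type liver and knockout liver. Strain and the way the deletion was made are not given in the sources used here, nor whether each numbered library of a group came from a mouse of its own. The p-values therefore measure the spread between these libraries, which may be partly technical.

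Malat1 and Neat1 are neighbouring nuclear RNAs. Malat1 gathers in nuclear speckles, bodies rich in splicing factors, and Neat1 is the scaffold of paraspeckles, bodies that form around its long isoform. Miat, also called Gomafu, is a neuronal nuclear RNA that binds splicing factors. Rmst and Sox2ot are tied to Sox2, the transcription factor of neural stem cells: Rmst binds the Sox2 protein and Sox2ot is transcribed across the Sox2 gene. Pantr1 lies beside the cortical transcription factor gene Pou3f3, Dlx6os1 (Evf2) lies at the Dlx5 and Dlx6 genes of forebrain interneurons, and Pvt1 lies beside the oncogene Myc.

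The 3′ parts of Malat1 and Neat1 are shown because they hold a shared element whose U-rich stretches pair with an A-rich tract, a triple helix that stabilises RNA ends without a poly(A) tail. This is background for a total RNA library, which does not select poly(A) tails. Both sequences are from the GENCODE M21 transcripts on GRCm38, read 5′ to 3′ on the minus strand. The Malat1 stretch covers bases 6598 to 6701 of the 6983-base Malat1-201, at chr19:5795972-5796075. The Neat1 stretch covers bases 20672 to 20771 of Neat1-201, at chr19:5824708-5824807, and ends where the annotated transcript ends. Capitals mark the 3 runs of at least 11 bases that the stretches share.
Malat1-201: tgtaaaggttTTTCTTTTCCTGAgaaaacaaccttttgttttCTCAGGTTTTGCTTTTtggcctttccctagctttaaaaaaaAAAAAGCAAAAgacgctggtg
Neat1-201: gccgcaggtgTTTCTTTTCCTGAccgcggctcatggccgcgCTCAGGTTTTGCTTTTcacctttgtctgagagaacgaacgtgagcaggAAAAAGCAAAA
The runs are 13, 16 and 11 bases long and stand in the same order in both RNAs. Among 55341 gene names in the annotation, 2 had a transcript with all 3 runs, namely Malat1 and Neat1, from which the runs were taken. In Malat1-201 another 292 bases follow the last run.

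A stretch of Miat is shown for its repeated ACTAAC, the motif recognised by the branch-point protein Sf1. Bases 5008 to 5082 of the 9163-base Miat-205 lie at chr5:112217309-112217383 on the minus strand of GRCm38, with each ACTAAC in capitals.
Miat-205: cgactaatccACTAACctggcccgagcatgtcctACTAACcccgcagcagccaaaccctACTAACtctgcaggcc
These are 3 of the 11 copies in Miat-205, which fall between bases 4942 and 6852, and its reverse complement GTTAGT was found 0 times. Of 937 annotated transcripts of 8000 to 10000 bases, 3 (0.32%) had at least 11 copies, the median was 1 copy, and 63.7% had at least 1. Miat-205, from which the threshold of 11 was taken, is itself among the 937 and among the 3. The longest Neat1 transcript had 4 copies, those of Pantr1 and Pvt1 had 1 each, and those of Malat1, Rmst, Sox2ot and Dlx6os1 had 0.

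Total counts ran from 14844937 to 18567362 in the brain libraries and from 23247425 to 27155478 in the liver libraries. Vaultrc5 had 0 counts in all 6 knockout libraries, 1 to 4 in wild-type brain and 33 to 48 in wild-type liver. The hepatocyte gene Alb had at most 5 counts in brain and at least 714287 in liver, and the neuronal gene Snap25 had at least 31003 in brain and at most 3 in liver. The brain libraries were unlike each other in regional markers. The 5 cerebellar markers (Pcp2, Cbln1, Gabra6, Neurod1 and Calb1) summed to 1026, 117 and 297 CPM (counts scaled to the library total) in wild-type libraries 1, 2 and 3 and to 976, 87.8 and 463 in knockout libraries 1, 2 and 3. Both libraries numbered 2 therefore stood apart, with all 5 markers lowest in each, and the genotype comparison in brain is given with and without them.

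Values below are CPM scaled by TMM within a tissue unless another scale is named. Brain and liver CPM so scaled do not share a scale, and their ratio need not match a log2 difference tested between tissues. Malat1 (chr19:5795690-5802672, minus strand, a single exon block of 6983 bases) was among the most abundant of all RNAs measured. In brain it stood at 22002, 18557 and 19107 CPM in wild type and at 22056, 21417 and 20788 CPM in knockout. In liver it stood at 7300, 7736 and 7180 CPM in wild type and at 7574, 7673 and 7276 CPM in knockout. By mean CPM it ranked 2nd of all genes in brain and 13th in liver, and per kilobase of exon it ranked 11th and 60th. Its libraries lay close together. The SD of its log2(CPM + 1) over the 6 liver libraries was 0.0452, at percentile 1.52 of the 13327 genes with a mean of at least 1 CPM, and 0.106 over the 6 brain libraries, at percentile 19.3 of 16715 genes.

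Neat1 (chr19:5824708-5845478, minus strand) lies 22035 bases from Malat1 in the annotation and had the opposite distribution. In brain it stood at 122, 74.5 and 128 CPM in wild type and at 96.9, 99.3 and 121 CPM in knockout. In liver it stood at 2676, 4102 and 2526 CPM in wild type and at 4281, 3108 and 1930 CPM in knockout. Every liver library was far above every brain library, and Neat1 ranked 46th of all genes in liver and 2018th in brain. The liver libraries also differed among themselves, by 1.62 times from lowest to highest in wild type and 2.22 times in knockout, and the SD of log2(CPM + 1) over the 6 was 0.439, at percentile 93.5. The 20771-base Neat1-201 holds the whole of the 3004-base Neat1-202 in the same exon block, so counts per gene cannot tell the paraspeckle-forming long isoform from the short one.

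**Figure D1:**
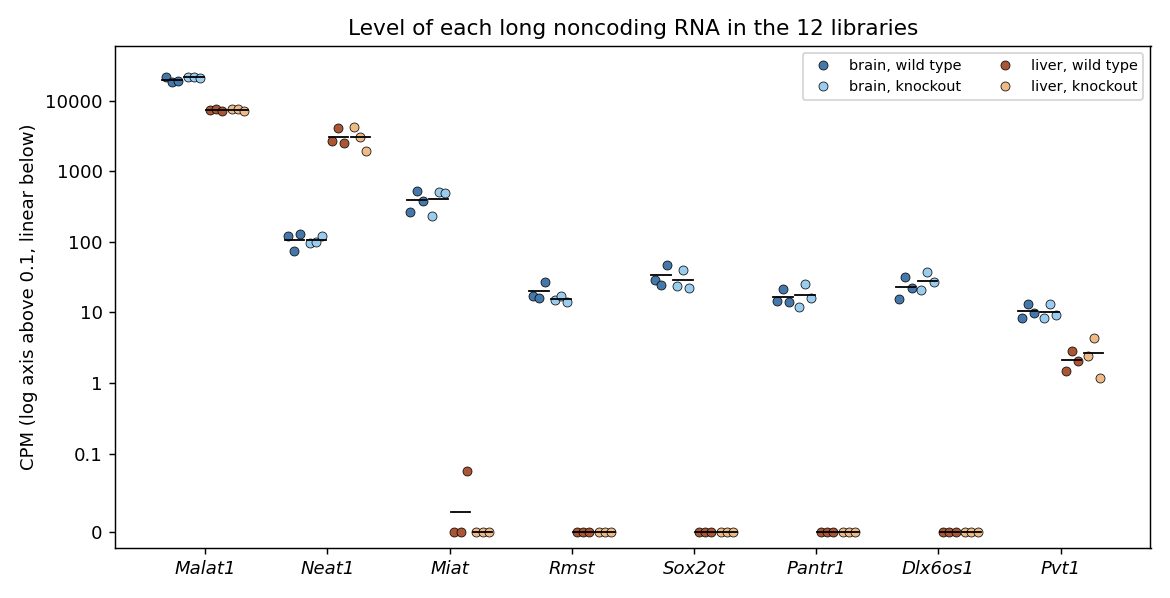
CPM of the 8 long noncoding RNAs (vertical axis, logarithmic above 0.1 CPM and linear below) in each library, with points for libraries 1 to 3 from left to right and a line at the group mean. Malat1 is at 18557 CPM or more in all brain libraries, Neat1 is higher in all liver libraries, and Rmst, Sox2ot, Pantr1 and Dlx6os1 are at 0 in all liver libraries.

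Miat (chr5:112213228-112229395, minus strand) stood in brain at 270, 519 and 385 CPM in wild type and 232, 506 and 487 CPM in knockout. Sox2ot (chr3:34104270-34682619, plus strand) stood at 29.3, 24.3 and 47.3 CPM in wild type and at 23.6, 40.4 and 21.9 CPM in knockout. Rmst (chr10:92071037-92165170, minus strand) stood at 17.2, 16.1 and 26.9 CPM in wild type and at 14.9, 17 and 14.2 CPM in knockout. Sox2ot and Rmst, the RNAs tied to Sox2, were thus both highest in wild-type library 3 and, among the knockouts, in library 2. Dlx6os1 (chr6:6820189-6871592, minus strand) stood at 15.7, 31.5 and 22.4 CPM in wild type and at 20.9, 37.4 and 26.8 CPM in knockout. Pantr1 (chr1:42590782-42694842, minus strand) stood at 14.4, 21.5 and 14.1 CPM in wild type and at 11.9, 25.5 and 16.3 CPM in knockout. Pvt1 (chr15:62037986-62378096, plus strand) stood at 8.37, 13.2 and 9.86 CPM in wild type and at 8.43, 13.3 and 9.08 CPM in knockout. Miat, Dlx6os1, Pantr1 and Pvt1 were highest in library 2 of both genotypes.

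Per kilobase of annotated exon, the order in wild-type brain was Malat1 at 2848 ± 265 CPM per kb (SD, n = 3), Miat at 42.1 ± 13.4, Neat1 at 5.20 ± 1.40, Dlx6os1 at 4.49 ± 1.54, Pantr1 at 3.73 ± 0.938, Sox2ot at 2.90 ± 1.04, Rmst at 2.70 ± 0.807 and Pvt1 at 1.5 ± 0.35. Malat1 and Miat did not overlap with any other member or each other in these libraries. From Neat1 down to Rmst, each gene's libraries overlapped with those of the next in the order, and these neighbours did not differ beyond their spread. Pvt1, at most 1.88 CPM per kb, lay below Rmst, at least 2.17. In wild-type liver the order was Malat1 at 1060 ± 41.9 CPM per kb, Neat1 at 149 ± 41.9 and Pvt1 at 0.305 ± 0.101, with no overlap between them.

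Miat, Rmst, Sox2ot, Pantr1 and Dlx6os1 were at or near 0 in liver. Rmst, Sox2ot, Pantr1 and Dlx6os1 had 0 counts in all 6 liver libraries, which allows up to 3 counts per library, or 0.110 to 0.129 CPM, for counting error only. Miat had 2 counts in wild-type liver library 3 and 0 in the other 5. Pvt1 was measured in all 6, at 1.47, 2.87 and 2.06 CPM in wild type and 2.41, 4.37 and 1.19 CPM in knockout. In RNA from whole tissue, fewer cells of a type and less RNA per cell cannot be told apart.

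Wild-type brain was compared with wild-type liver to place these levels on a common scale, with the edgeR quasi-likelihood test and TMM scaling over the 6 libraries. A gene was called at an adjusted p under 0.05. All 8 members were called, 7 higher in brain and 1, Neat1, higher in liver. Among the 7, Miat, Rmst, Sox2ot, Pantr1 and Dlx6os1 passed the filter on low counts through brain alone, so their calls were largely set in advance. Of 18850 genes tested, 78.6% were called, 43.9% higher in brain and 34.7% higher in liver, so a call alone sets no gene apart. The median log2 difference, brain over liver, was 0.21 over all genes, and it became 1.05 when library totals replaced TMM. For Malat1, Neat1 and Pvt1 the difference is therefore also given relative to that median. The counts were the same in knockout mice, with 7 members higher in brain and 1 in liver, beside 43.5% and 35.2% of 18785 genes (78.7% in either direction). Miat, Rmst, Sox2ot, Pantr1 and Dlx6os1 again passed the filter through brain alone, so for them the repeat adds no support. There the median was 0.21, and 1.08 with library totals. Without brain library 2 of the genotype, all 8 members were called in wild type and 7 in knockout.

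Neat1 was 52.1-fold higher in wild-type liver than in wild-type brain by TMM (log2 difference, brain over liver, of -5.70 ± 0.33 SE, edgeR adjusted p = 2.18e-06) and 28.9-fold higher by library totals. In knockout mice it was 53.1-fold higher in liver (-5.73 ± 0.37, edgeR adjusted p = 4.7e-06), and 29.0-fold by library totals. Relative to the median of all genes, these differences were -5.91 and -5.94. Malat1 differed far less and in the other direction. Its log2 difference was 0.57 ± 0.17 in wild type (edgeR adjusted p = 0.0146) and 0.66 ± 0.17 in knockout (edgeR adjusted p = 0.0087), or 0.36 and 0.46 above the median of all genes. The wild-type call was lost without liver library 1 (0.54, edgeR adjusted p = 0.0551) or liver library 3 (0.53, edgeR adjusted p = 0.0555). With library totals the wild-type difference was 1.41 against a median of 1.05.

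The ratio of the neighbours within a library does not depend on how libraries are scaled. Per 100 Malat1 counts, wild-type brain held 0.553, 0.401 and 0.668 Neat1 counts, and knockout brain held 0.439, 0.464 and 0.582. Wild-type liver held 36.7, 53.0 and 35.2, and knockout liver held 56.5, 40.5 and 26.5. No brain library came near a liver library, while the genotypes overlapped in both tissues. Per kilobase of exon, Neat1 was at 0.182% ± 0.0450 of Malat1 in wild-type brain and at 14% ± 3.33 in wild-type liver (SD, n = 3).

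**Figure D2:**
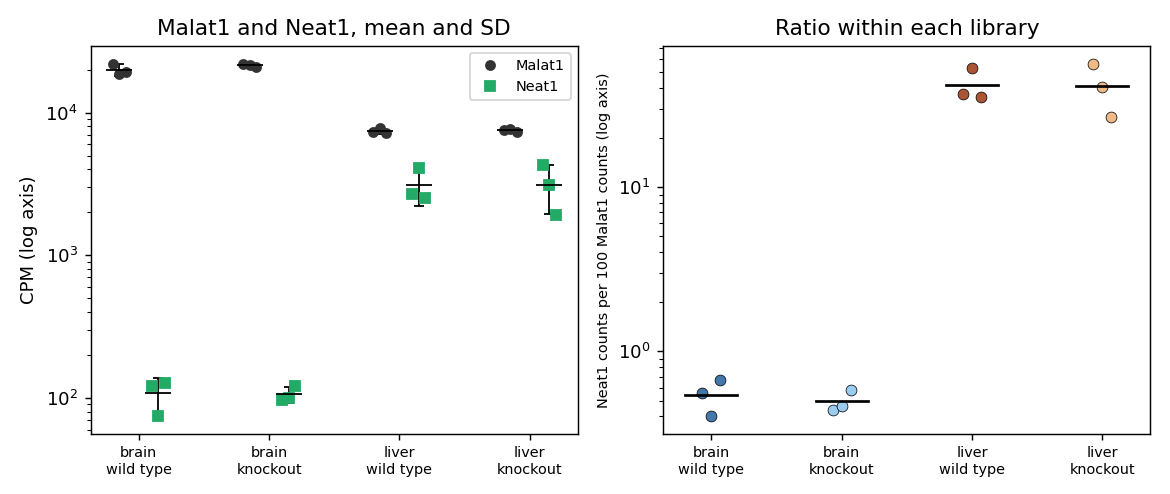
Left, CPM of Malat1 (circles) and Neat1 (squares) by group on a log axis, with mean and SD of 3 libraries; right, Neat1 counts per 100 Malat1 counts in each library on a log axis, with a line at the mean. The ratio is 0.401 to 0.668 in the 6 brain libraries and 26.5 to 56.5 in the 6 liver libraries.

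The RNAs at 0 in liver were at least 158-fold (Sox2ot), 109-fold (Dlx6os1), 94.0-fold (Rmst) and 78.2-fold (Pantr1) higher in wild-type brain, set against 3 counts in each liver library. With library totals these bounds were 283-fold, 194-fold, 168-fold and 139-fold. In knockout mice the bounds were 129-fold, 128-fold, 69.3-fold and 80.4-fold in the same order, and 235-fold, 233-fold, 126-fold and 146-fold with library totals. For Miat the ratio of wild-type brain to the 2 liver counts was 8287, with a 95% counting interval of 2294 to 68429, and 14751 (4084 to 121807) with library totals. In knockout mice, where liver had 0 counts, Miat was at least 1841-fold higher in brain, or 3345-fold with library totals. All 5 were called in both genotypes (edgeR adjusted p from 4.44e-07 to 6.76e-05). They passed the filter on low counts through brain alone, so these calls add no support beyond the counts themselves.

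Pvt1 was the one member besides Malat1 that was measured in both tissues and called higher in brain. Its log2 difference in wild type was 1.43 ± 0.30 (edgeR adjusted p = 0.00256), a ratio of 2.71, or 4.83 with library totals. In knockout mice it was 1.10 ± 0.44 (edgeR adjusted p = 0.0492), a ratio of 2.14, or 3.97 with library totals. Relative to the median of all genes the differences were 1.22 and 0.89. The knockout call rested on single libraries. The edgeR adjusted p was 0.0632, 0.156 and 0.0846 without knockout brain library 1, 2 or 3, and 0.130 and 0.0828 without knockout liver library 1 or 3. It was also lost with DESeq2 size factors (0.0517), with a filter at 1 CPM (0.0547) and with no filter (0.0584), all edgeR adjusted p-values.

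The genes of the protein partners of these RNAs were called in both directions between the tissues by TMM. With library totals they were called almost only toward brain. With library totals in place of TMM, 61.7% of all genes were called toward brain and 21.2% toward liver (43.9% and 34.7% by TMM), so the split of each list is given under both scalings. Of 26 paraspeckle protein genes, 13 were called higher in wild-type brain, 6 were called higher in wild-type liver and 7 were not called, with a median log2 difference of 0.37 against 0.21 for all genes. The calls were 22 to 1 with library totals, with a median of 1.21 against 1.05 for all genes. Hnrnpf, a splicing regulator, stood at 61.5 ± 3.61 CPM in wild-type brain and 132 ± 3.75 in wild-type liver, and its log2 difference was -1.96 ± 0.10 (edgeR adjusted p = 9.74e-07). Zc3h6 stood at 35.1 ± 8.94 and 4.99 ± 1.78 CPM (1.96 ± 0.31, edgeR adjusted p = 0.000566). Celf6, a neural splicing regulator, was at 11.7 ± 4.33 CPM in brain and 0 in liver. With library totals Hnrnpf was at -1.12 and Zc3h6 at 2.80. Dazap1 was called lower in brain (-1.0), and the call was lost with library totals (-0.17).

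Of 20 nuclear speckle and splicing factor genes, 3 were called higher in brain, 6 were called higher in liver and 11 were not called, and with library totals 14 were called higher in brain and 0 in liver. Their median of -0.03 lay below that of all genes, as did 0.81 against 1.05 with library totals. Luc7l3, a U1 snRNP-associated factor, was called higher in brain (0.99 ± 0.16, edgeR adjusted p = 0.000679), as was Srsf7 (0.40 ± 0.10), with 1.83 and 1.24 by library totals. U2af1 and Srsf2 were called lower in brain (-1.05 each), and both calls were lost with library totals (-0.21 each). Of 5 Miat-binding splicing proteins, 2 were called higher in brain, 1 was called higher in liver and 2 were not called, with a median of 0.18. With library totals all 5 were called higher in brain, with a median of 1.02 against 1.05 for all genes. Celf3 stood at 95.3 ± 24.9 CPM in brain and at most 0.0383 in any liver library, and Qk, the quaking protein of myelinating cells, at 595 ± 157 and 109 ± 6.57 CPM. Sf1, which binds the ACTAAC repeats printed above, was at -0.43 by TMM and 0.41 by library totals, both called, so its direction flips with the scaling.

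Among 30 other listed long noncoding RNAs, 26 were in the table and 24 were tested between the wild-type tissues. Of these, 13 were called higher in brain, 7 were called higher in liver and 4 were not called, with a median log2 difference of 1.10 against 0.21 for all genes. With library totals the calls were 18 to 2, with a median of 1.94 against 1.05 for all genes. Mir124a-1hg, host of the neuronal miR-124, stood at 268 ± 81.5 CPM in wild-type brain and C130071C03Rik at 76.0 ± 11.9, both with 0 counts in wild-type liver. Mir22hg stood at 11.9 ± 3.01 in brain and 23.9 ± 4.15 in liver, and Dnm3os at 0.0594 ± 0.103 and 1.93 ± 0.235. None of the genes in these 4 lists was called between genotypes in either tissue by edgeR with TMM, and 0 had an unadjusted p under 0.05. With library totals 0 were called, and 1 of the other long noncoding RNAs had an unadjusted edgeR p under 0.05 in liver.

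Loss of Vaultrc5 was then compared with wild type in each tissue. In brain all 8 members were tested and 0 were called, and their wild-type and knockout libraries overlapped for every one. Over all 18075 genes 0% were called by edgeR, 122 (0.675%) had an unadjusted p under 0.05, and 4.32% had groups that did not overlap. DESeq2 also called 0, with 78 genes at an unadjusted p under 0.05. The median log2 difference, knockout over wild type, was 0.03 over the members and -0.01 over all genes, and the median absolute difference was 0.11 against 0.10.

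By member, the log2 differences in brain were 0.12 ± 0.12 (SE) for Malat1 and -0.02 ± 0.22 for Neat1. The neural RNAs had 0.07 ± 0.35 for Miat, -0.22 ± 0.32 for Sox2ot and -0.37 ± 0.21 for Rmst, which had the smallest unadjusted p of the 8, at 0.125 in the edgeR test. Dlx6os1 was at 0.30 ± 0.30, Pantr1 at 0.11 ± 0.30 and Pvt1 at -0.02 ± 0.24. The edgeR adjusted p was 1.00 for all 8. The SEs show how little this fit of the 6 libraries, which has no block, can resolve. Miat had the largest SE of the 8, and a change of 0.35 on the log2 scale equals 1 SE for it. With each library left out in turn, Rmst ran from -0.50 to -0.10, the latter without wild-type library 3, Dlx6os1 from 0.07 to 0.59 and Malat1 from 0.07 to 0.19. The ranges of the other 5 included 0. Without both libraries numbered 2, 0 members and 0 genes were called by edgeR. The log2 differences were then 0.09 ± 0.15 for Malat1, -0.16 ± 0.15 for Neat1, 0.17 ± 0.39 for Miat, -0.72 ± 0.24 for Sox2ot and -0.57 ± 0.23 for Rmst. Dlx6os1 was at 0.36 ± 0.23, Pantr1 at 0.02 ± 0.21 and Pvt1 at -0.03 ± 0.20. In the libraries kept, the 5 oligodendrocyte markers summed to 3047 and 6379 CPM in wild type and to 2188 and 2028 in knockout. Their part in these differences was not tested. With all 6 libraries and the replicate number as a block, SEs were smaller for Miat (0.04 ± 0.12), Pantr1 (0.08 ± 0.13), Pvt1 (-0.02 ± 0.12) and Dlx6os1 (0.31 ± 0.09). The SE was larger for Sox2ot (-0.22 ± 0.43), and 0 genes were called.

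**Figure D3:**
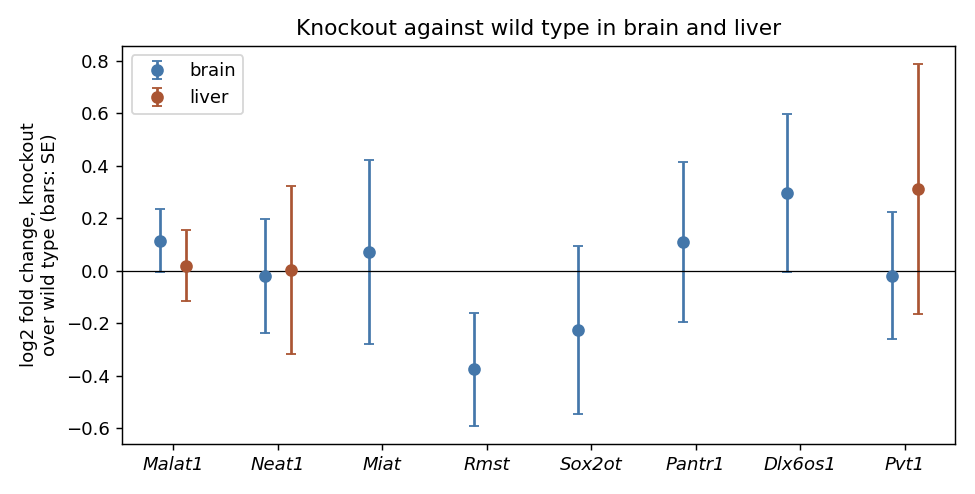
Log2 fold change, knockout over wild type, with SE as bars, for the 8 members in brain and the 3 that could be tested in liver. In brain the values run from -0.37 (Rmst) to 0.30 (Dlx6os1) and none was called.

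In liver 3 members passed the filter on low counts and 0 were called. Malat1 was at 0.02 ± 0.14, Neat1 at 0.00 ± 0.32 and Pvt1 at 0.31 ± 0.48 (edgeR adjusted p from 0.99 to 1.00), and the groups overlapped for each. With the replicate number as a block, which pairs the liver libraries, they were at 0.02 ± 0.15, -0.04 ± 0.24 and 0.22 ± 0.32, with 0 called. Over all 15329 genes 0% were called by edgeR, 536 (3.50%) had an unadjusted p under 0.05, and 9.85% had groups that did not overlap. DESeq2 called 10 genes and 425 had an unadjusted p under 0.05 with it. With the replicate number as a block edgeR called 2 genes, and without wild-type liver library 2 it called 1. No member was among the genes called in any of these fits.

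The difference between the genotype effects in liver and brain was tested in a fit of all 12 libraries. Among 20141 genes edgeR called 0%, and 489 (2.43%) had an unadjusted p under 0.05. DESeq2 called 1, and edgeR with the replicate number as a block called 2, none of them a member. The difference, liver minus brain, was -0.11 ± 0.21 for Malat1, 0.01 ± 0.44 for Neat1 and 0.31 ± 0.57 for Pvt1 (edgeR adjusted p = 1.00 for each), and -0.06 ± 0.23, 0.18 ± 0.46 and 0.35 ± 0.64 without both brain libraries numbered 2. The other 5 members were at or near 0 in liver and gave no usable estimate.

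The brain libraries differed among themselves in most of these RNAs. Over the 6 brain libraries the SD of log2(CPM + 1) was 0.50 for Miat, 0.441 for Sox2ot, 0.43 for Dlx6os1 and 0.391 for Pantr1, at percentiles 93.2, 90.4, 89.6 and 86.8 of the genes with a mean of at least 1 CPM. Rmst was at percentile 78.7, Neat1 at 75.0 and Pvt1 at 73.1. Markers of regions and cell types moved across the same libraries. The 6 cortical excitatory markers summed to 922, 1668 and 958 CPM in wild type and 1011, 1446 and 1350 in knockout, with 6 of 6 highest in wild-type library 2 and 5 of 6 in knockout library 2, the libraries in which Miat, Dlx6os1, Pantr1 and Pvt1 were highest. The cerebellar markers were lowest in the same libraries, with Gabra6 at 0.165 and 0.0591 CPM there and at 48.5 to 215 CPM in the other 4.

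Sox2ot and Rmst followed other markers. The 5 oligodendrocyte markers summed to 3047, 1840 and 6379 CPM in wild type and 2188, 3321 and 2028 in knockout. All 5 were highest in wild-type library 3 and in knockout library 2, as Sox2ot and Rmst were. In knockout, Rmst ran only from 14.2 to 17 CPM. The 5 midbrain and thalamus markers and the 4 choroid plexus markers were also all highest in wild-type library 3. In knockout the former summed highest in library 3 (66.4 CPM) and the latter in library 1 (627 CPM). The 5 markers of microglia and Kupffer cells summed to 79.1, 126 and 110 CPM in wild type and 87.0, 132 and 108 in knockout, also highest in the libraries numbered 2. Clec4f, the Kupffer cell lectin on that list, was at 0 in every brain library. In liver the same markers reached 215 CPM in knockout library 2 against 91.5 to 124 in the other 5, and that library had the highest Pvt1. The 6 striatal markers summed to 190, 164 and 361 CPM in wild type and to 464, 387 and 131 in knockout. The part of regional and cell-type content in the levels of these RNAs was not tested.

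**Figure D4:**
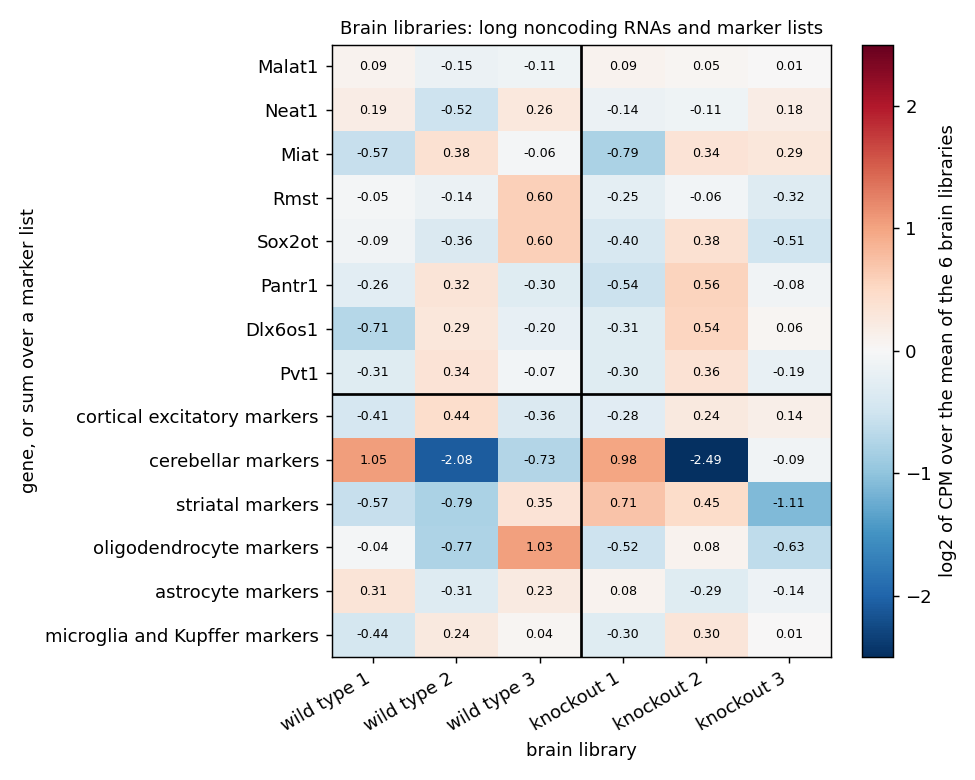
Log2 of CPM over the mean of the 6 brain libraries, for the 8 long noncoding RNAs (above the line) and the summed CPM of 6 marker lists (below it), with wild-type libraries on the left and knockout libraries on the right. Miat, Pantr1, Dlx6os1 and Pvt1 are above the mean in both libraries numbered 2, where cerebellar markers are at -2.08 and -2.49, and Sox2ot is at 0.60 in wild-type library 3, where oligodendrocyte markers are at 1.03.

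The genes whose level followed each RNA most closely were found by Pearson's r of log2(CPM + 1) over the 6 libraries of a tissue. These are the highest of 16715 values in brain and 13327 in liver, over libraries that share a tissue and differ together in regional markers and depth, and are given as a description. For Sox2ot they were Opalin (r = 0.994), 2810468N07Rik (0.993) and Mal (0.991), of which Opalin and Mal encode myelin membrane proteins. For Rmst they were Grb10, Bace1 and Hcn2 (0.993, 0.993 and 0.992). For Miat they were Gm44926, L3mbtl1 and Pcdha4 (0.995, 0.995 and 0.993). For Pantr1 they were Etv6, A230006K03Rik and Irf8, for Dlx6os1 Gm9947, Robo3 and Rin1, and for Pvt1 in brain Cep70, Gm45176 and Hdgfl3, with r from 0.991 to 0.998. Malat1 was followed by Gm48551, Slc2a4rg-ps and Gm12294 in brain and by Gpr89, Il2rg and Ttc41 in liver. Neat1 was followed by Atad3a, Gm44220 and Ogfr in brain and by Pcdh1, Praf2 and Trappc8 in liver, and Pvt1 in liver by Ska2, Dio1 and Gm340. No gene was in the first 3 of more than 1 member.

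The coding neighbours of Sox2ot, Pantr1 and Dlx6os1 were measured in every brain library and were at or near 0 in liver. Sox2, which lies within an intron of Sox2ot on the same strand with 0 shared exon bases, stood at 23.3, 24.1 and 26.5 CPM in wild-type brain and 21.7, 25.2 and 23.5 in knockout brain, with 0 counts in liver. Over the 6 brain libraries Sox2 thus ran from 21.7 to 26.5 CPM while Sox2ot ran from 21.9 to 47.3 CPM. Pou3f3, the neighbour of Pantr1, stood at 99.5, 146 and 114 CPM in wild type and 91.9, 156 and 131 in knockout, highest in library 2 of each genotype as Pantr1 was. Dlx5 stood at 1.48, 2.64 and 3.03 CPM in wild type and 2.37, 2.72 and 2.85 in knockout, and Dlx6 at 2.61, 3.08 and 3.27 in wild type and 3.36, 4.02 and 2.42 in knockout, both with 0 in liver. Dlx5 was highest in the libraries numbered 3 and Dlx6 in wild-type library 3 and knockout library 2. At these low levels some margins were small, as between 2.72 and 2.85 CPM for Dlx5 in knockout libraries 2 and 3. The orders therefore do not settle whether either gene followed Dlx6os1. The 5 markers of GABA neurons (Gad1, Gad2, Slc32a1, Dlx1 and Dlx2) summed to 497, 402 and 529 CPM in wild type and 505, 465 and 416 in knockout. In wild-type library 2, where Dlx6os1 was highest, 3 of the 5 were lowest (Gad1, Gad2 and Slc32a1, at 206, 139 and 42.4 CPM) and 2 were highest (Dlx1 and Dlx2, at 10.7 and 4.35 CPM). In knockout library 2, Dlx1 and Dlx2 were again the 2 of 5 that were highest, at 15.3 and 5.49 CPM.

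Nedd1, the listed coding neighbour of Rmst, was higher in wild-type liver (17.9 ± 0.267 CPM) than in wild-type brain (4.20 ± 0.986, log2 difference -2.95 ± 0.19, edgeR adjusted p = 3.58e-06). Myc, beside Pvt1, was higher in wild-type liver (-1.47 ± 0.25, edgeR adjusted p = 0.0009) while Pvt1 was higher in brain. With library totals Nedd1 was at -2.11 and Myc at -0.64 (edgeR adjusted p = 0.0477). In liver Myc stood at 5.08, 3.28 and 3.54 CPM in wild type and at 20.7, 14 and 3.52 CPM in knockout, so 2 knockout libraries were high and the third was at the wild-type level. Its log2 difference of 1.69 ± 0.64 had an edgeR adjusted p of 0.99. Frmd8, at the Malat1 and Neat1 locus, had a wild-type tissue difference of -0.49 by TMM and 0.36 by library totals. Its direction there flips with the scaling. The wild-type difference was called without brain library 3 (-0.92, edgeR adjusted p = 0.00852) but not with all libraries. In knockout mice Frmd8 was called higher in liver by TMM (-0.85 ± 0.17, edgeR adjusted p = 0.00239).

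Most members share exon bases with short records of the annotation, and their counts carry an uncertainty of assignment. Deposited counts were not whole in 6 libraries for Miat, 6 for Rmst, 5 for Sox2ot, 7 for Pvt1 and 2 for Neat1, and were whole in all libraries for Malat1, Pantr1 and Dlx6os1. When the records on the same strand that overlap a member were added to it, all sums were whole within 0.02. These records held at most 6.14% of the sum for Rmst, 4.25% for Sox2ot, 3.98% for Pvt1, 2.98% for Miat and 0.27% for Neat1. Records on the opposite strand that overlap Malat1 had 1 to 4 counts, and those that overlap Miat had at most 12. Dlx6 lies on the strand opposite Dlx6os1 and shares 0 exon bases with it.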

How the data were processed

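Brain and liver of male wild-type and vaultrc5-/- mice were profiled by stranded, rRNA-depleted total RNA sequencing with single-end reads, per the labels' protocols. What the authors deposited was a table of expected counts, 1 value per gene in each library, without normalization. Reads were processed with cutadapt and STAR on mm10, per the submitters' processing notes. How reads were counted, and whether strand was used, is not given in the sources used here. All 55450 gene identifiers matched GENCODE M21 (GRCm38), which gave coordinates, exon lengths and sequences. Fractional values made up 5.06% to 5.71% of each library, and all counts were rounded to whole numbers.

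Comparisons used the edgeR 4.0.16 quasi-likelihood test in R 4.3.3 with TMM, a filter at a minimum count of 10 and total of 15, and Benjamini-Hochberg adjustment over all genes tested. Each comparison was fitted on its own 6 libraries and the genotype by tissue interaction on all 12. The code was tested on simulated data. Folds against a group at 0 use a floor of 3 counts per library, 0.162 to 0.202 CPM in brain and 0.110 to 0.129 CPM in liver. Intervals and floors cover counting error only, since the reads carry no molecular identifiers. The 12 pairs of replicates differed by 27.2 to 228 times the sampling noise of a chi-square statistic per degree of freedom, which leaves no pair that looks like a repeat deposit of a single library. This does not show that they came from separate mice. Same-numbered liver libraries of both genotypes deviated together (correlations 0.33, 0.36 and 0.40), so the titles' numbers were taken as pairs there. The reported fits have no block, and blocked values for the members in liver stand beside them.

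The members and gene lists were chosen with earlier results of these data known. The genes named were the members, the 3 genes most like each in a tissue where it averaged at least 1 CPM, their coding neighbours (1 is not reported here), and from each list the 2 most different genes in each direction between the wild-type tissues. Clec4f and Gabra6 come from the marker lists and were picked after their values were seen. Alternatives were DESeq2 size factors or library totals, DESeq2 1.42.0, no filter, a filter at 1 CPM, robust estimation off, all 12 libraries in 1 fit, the replicate block and each library left out. Leaving out both brain libraries numbered 2 was chosen after seeing the data.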

Additional observations from a re-analysis of the deposited data

How the results depend on the processing

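With 3 libraries a group, genotype differences of members near 0 changed sign between settings, none of them with a call. For knockout against wild type in liver, where no gene was called, 10 genes were called by DESeq2, 4 with no filter and 2 with the replicate block, and 0 to 1 with a library left out. For the interaction, 1 was called by DESeq2 and 2 with the replicate block. Library totals gave log2 differences in liver of -0.022 for Malat1 and -0.037 for Neat1, and an interaction of -0.0071 for Neat1. They gave wild-type tissue differences of 0.41 for Sf1 and 0.36 for Frmd8. No filter gave -0.0077 for Neat1 in liver and -0.0010 in the interaction. With the replicate block Neat1 was at 0.011 in brain, -0.040 in liver and -0.072 in the interaction.

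With a library left out, the knockout differences in brain ran from -0.22 to 0.12 for Neat1, -0.14 to 0.36 for Miat, -0.54 to 0.10 for Sox2ot, -0.22 to 0.34 for Pantr1 and -0.23 to 0.19 for Pvt1. In liver they ran from -0.0024 to 0.050 for Malat1, -0.30 to 0.25 for Neat1 and -0.24 to 0.66 for Pvt1, and the interaction from -0.32 to 0.26 for Neat1 and -0.23 to 0.66 for Pvt1. The causes were not tested.

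In brain the same-numbered libraries of both genotypes correlated in their deviations at 0.65, 0.62 and -0.02, and across tissues at 0.01 to 0.06, so brain numbers 1 and 2 deviated together and number 3 did not, and the numbers were not taken as pairs in these comparisons. The block left 0 genes called in brain, with 406 at an unadjusted p under 0.05, and Dlx6os1 at 0.31 ± 0.09 (edgeR adjusted p = 0.996). It ended the Malat1 tissue call, with an edgeR adjusted p of 0.0623 in wild type and 0.0530 in knockout (log2 differences 0.57 and 0.66). Neat1 stayed higher in liver, and Miat, Rmst, Sox2ot, Pantr1 and Dlx6os1 higher in brain, under all alternatives run.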
